A study of Homo sapiens with 6 samples.

Results

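Catecholamine synthesis, storage and uptake were followed through 9 genes, found by symbol in the deposited count tables: TH, GCH1, DDC, DBH and PNMT for synthesis, SLC18A1 and SLC18A2 for storage in vesicles, SLC6A2 for uptake at the cell surface and MAOA for breakdown. All 9 were present among 19923 genes, and all 9 had enough counts to be tested, among 15311 genes tested. The series held RNA-seq libraries of poly(A) RNA from Kelly, an established human neuroblastoma line with MYCN amplification that the labels give as wild type (WT). Cells received a control siRNA (siControl, 3 libraries) or siRNA against METTL3 (siMETTL3, 3 libraries) and were collected after 72 hours. METTL3 encodes the enzyme that writes N6-methyladenosine into mRNA. The model is 1 cell line, and the file headers give the siRNA the same tag in all 3 siMETTL3 libraries. The reduction of METTL3 and any other effect of that siRNA thus cannot be told apart. Nothing in the labels says that replicates were separate cultures, so p-values measure the spread between these libraries only.

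Catecholamines are made from tyrosine. Tyrosine hydroxylase (TH) forms L-DOPA and is the rate-limiting step, with tetrahydrobiopterin, whose synthesis GCH1 starts, as its cofactor. Aromatic L-amino acid decarboxylase (DDC) forms dopamine, the vesicular transporters VMAT1 (SLC18A1) and VMAT2 (SLC18A2) load it into vesicles, and dopamine beta-hydroxylase (DBH) turns it into noradrenaline there. PNMT makes adrenaline from noradrenaline, the noradrenaline transporter (SLC6A2) takes noradrenaline back up, and monoamine oxidase A (MAOA) degrades it. Neuroblastoma arises from sympathetic precursors, and secretion of catecholamine metabolites and SLC6A2-dependent uptake of labelled MIBG are used in its diagnosis.

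In siMETTL3 cells TH and both vesicular transporters rose more than 2-fold, DDC rose 1.27-fold and DBH 1.28-fold, and GCH1 and MAOA fell. SLC6A2 and PNMT did not pass the test. Of the 9 genes, 5 were higher and 2 were lower by the quasi-likelihood test of edgeR, with an adjusted p (FDR) under 0.05 as the limit, where 37.8% of all tested genes were called, 18.6% as higher and 19.2% as lower. A rise of at least 2-fold was called for 3 of the 9 and for 2.74% of all tested genes. Groups of values did not overlap for 7 of the 9 and for 49.9% of all tested genes, and siMETTL3 lay above for 5 of the 9 and for 24.8% of all tested genes. The median log2 fold change was 0.35 over the 9 genes and -0.0021 over all tested genes. In a bulk sample, more cells expressing a gene and more RNA per cell cannot be told apart.

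Library depth ranged from 15430000 to 21565013 counts, and siControl replicate 3 was the shallowest library and the one least like its group, so each result is also given without it where that matters. METTL3 itself, the siRNA target, was lower, with -0.71 as its log2 fold change (edgeR FDR 4.68e-06), siControl libraries at 52.8 to 56.2 CPM and siMETTL3 libraries at 31.8 to 34.3 CPM. TOX4, on the opposite strand, shares 7.9% of the METTL3 span, and reads there were counted for both genes. The TOX4 count was lower as well (log2 fold change -0.20, edgeR FDR 0.0431), a call lost in 8 of 14 other settings. CPM are counts per 1000000 counts of a library size scaled with TMM factors. The noradrenergic character of the cells was checked on 10 markers, all of which were tested: their summed level was 3549 to 3822 CPM in siControl and 4845 to 5248 CPM in siMETTL3, with TH and DBH among them. Of these 10, 6 were higher and 1 was lower. The 10 mesenchymal markers summed to 138 to 149 CPM and 109 to 121 CPM, but did not move one way: 8 were tested, with 2 higher, 2 lower and 4 not past the threshold. Schwann cell and adrenal cortex markers stayed low in every library, at no more than 8.65 CPM in sum for 5 Schwann cell genes and 5.39 CPM for 6 adrenal cortex genes. Of these 11 genes 5 were tested and none was past the threshold. The 3 markers of adrenaline-producing chromaffin cells, PNMT, SLC18A1 and PENK, summed to 72.4 to 98.7 CPM in siControl and 195 to 204 CPM in siMETTL3. Of these 3, SLC18A1 was higher, and PNMT and PENK were not past the threshold. The part of the changes in these marker sums in the results was not tested.

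RefSeq promoter windows (GRCh38.p14) were read for 4 of the 9 genes, DDC (with 2 start sites), DBH, SLC18A2 and MAOA. The remaining genes, SLC18A1 among them, were left out of this search, so their promoters were not tested. The 250 bases before the RefSeq start are shown for a transporter and an enzyme that rose and for MAOA, an enzyme that fell. These are regulatory sequences of genes that moved in opposite directions. GCH1, which fell too, was among the genes left out. Capitals mark TGACG, also inside the full cyclic AMP response element (CRE) TGACGTCA, and the SP1 box GGGCGG, each on either strand.
SLC18A2, chr10:117240864-117241113, plus strand: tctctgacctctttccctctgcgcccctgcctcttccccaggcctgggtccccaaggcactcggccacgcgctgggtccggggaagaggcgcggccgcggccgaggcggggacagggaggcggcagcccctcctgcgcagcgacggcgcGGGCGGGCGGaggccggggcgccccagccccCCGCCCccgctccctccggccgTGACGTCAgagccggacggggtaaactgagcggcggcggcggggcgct
DBH, chr9:133636113-133636362, plus strand: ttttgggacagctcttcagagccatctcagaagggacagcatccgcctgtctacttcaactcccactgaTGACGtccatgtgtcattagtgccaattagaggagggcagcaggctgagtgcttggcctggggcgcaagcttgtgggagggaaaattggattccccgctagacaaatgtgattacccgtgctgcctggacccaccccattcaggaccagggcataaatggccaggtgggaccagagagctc
MAOA, chrX:43656049-43656298, plus strand: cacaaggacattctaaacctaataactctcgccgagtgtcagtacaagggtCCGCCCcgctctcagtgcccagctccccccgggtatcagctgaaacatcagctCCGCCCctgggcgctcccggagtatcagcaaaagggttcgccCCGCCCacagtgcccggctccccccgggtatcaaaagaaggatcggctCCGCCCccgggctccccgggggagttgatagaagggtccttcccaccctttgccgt
The SLC18A2 window held a full CRE whose first base lay 48 bases before the start, a motif present in 1.65% of the 35116 RefSeq windows of that length. It also held 3 SP1 boxes, 2 of which overlap. DBH held TGACG without the full CRE, with its first base 181 bases before the start, where 21.2% of all windows held TGACG. MAOA held 4 SP1 boxes and no TGACG, and 42.6% of all windows held an SP1 box. The E-box CANNTG was found 3 times in DBH, 1 time in MAOA, at 2 overlapping places before 1 of the DDC starts, and not in SLC18A2 (61.8% of all windows). Neither DDC window held TGACG or an SP1 box. The AP-1 letters TGANTCA were in none of the 5 windows, against 6.57% of all windows. The homeodomain core TAATTA was likewise absent from the 5, against 4.35% of all windows. Nor did any of the 5 hold the GATA core AGATAA, found in 9.17% of all windows, or the box TATAAA, found in 10.7%. These are matches of letters in a short window and no measure of binding.

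TH (chromosome 11, 2163929 to 2171877, minus strand) showed the largest change of the 9 genes. Its level was 170, 210 and 165 CPM in siControl replicates 1 to 3 and 524, 555 and 481 CPM in siMETTL3. The siControl and siMETTL3 libraries were far apart, with no value in between. The mean went from 182 ± 24.9 to 520 ± 37.4 CPM (SD, n = 3), which is 2.86-fold (95% interval 2.50 to 3.27, edgeR FDR 1.89e-07). Only 148 called genes had a larger log2 fold change among the 15311 tested. No other gene of the tables or of GENCODE release 44 overlaps the TH span.

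GCH1 (chromosome 14, 54842008 to 54902826, minus strand), which encodes GTP cyclohydrolase 1, moved against TH although its product feeds the TH cofactor. It was measured at 19.0, 18.8 and 17.8 CPM in siControl and at 11.3, 11.2 and 11.8 CPM in siMETTL3. These are low levels with a narrow spread, and the groups were well apart. The mean fell from 18.6 ± 0.636 to 11.4 ± 0.301 CPM (SD, n = 3), leaving 0.615 of the control level (95% interval 0.531 to 0.712, edgeR FDR 0.000104). The pseudogene FDPSP3 covers 2.24% of the GCH1 span on the same strand, and the small RNA genes MIR4308 and RNU6ATAC9P cover 0.133% and 0.191%.

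DDC (chromosome 7, 50458436 to 50565405, minus strand) rose in every siMETTL3 library. Its level was 906, 954 and 767 CPM in siControl and 1141, 1110 and 1097 CPM in siMETTL3. The siControl libraries were the more spread, with replicate 3 lowest, and the change was 1.27-fold (95% interval 1.14 to 1.42, edgeR FDR 0.00208). Without siControl replicate 3 the log2 fold change was 0.26 in place of 0.35 and still past the threshold. The counted span of FIGNL1, a AAA ATPase gene on the same strand, covers 78.6% of the DDC span. Reads in the shared stretch were counted for both genes. That stretch holds 13 of the 15 exons of the canonical DDC transcript, with 82.6% of its exon bases. It holds none of the 4 exons of the canonical FIGNL1 transcript. Reads on those DDC exons thus also enter the FIGNL1 count, and any FIGNL1 reads in the stretch enter the DDC count. How many reads came from each gene was not measured. The FIGNL1 count was 96.4% to 98.8% of the DDC count in siControl and 92.0% to 92.7% in siMETTL3. The DDC count less the whole FIGNL1 count, a minimum for reads that only DDC received, was 704, 520 and 134 in siControl and 1723, 1940 and 1772 in siMETTL3. On that remainder the log2 fold change was 1.90, which also moves with reads that only FIGNL1 received, and the value was computed after the overlap had been seen. A non-coding gene on the opposite strand, DDC-AS1, covers 10.9% of the DDC span, and its reads cannot be told from those of DDC without strand information.

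DBH (chromosome 9, 133636363 to 133659329, plus strand) rose by a similar factor. It stood at 1155, 1132 and 936 CPM in siControl and at 1391, 1410 and 1320 CPM in siMETTL3. As for DDC, siControl replicate 3 was the lowest library and no siMETTL3 value fell into the siControl range. The change was 1.28-fold (95% interval 1.14 to 1.43, edgeR FDR 0.00234), with a log2 fold change of 0.36, or 0.26 without siControl replicate 3. A long non-coding gene on the opposite strand, DBH-AS1, lies within 11.9% of the span, and without strand information its reads cannot be separated from those of DBH.

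PNMT (chromosome 17, 39667981 to 39670475, plus strand) was close to the detection limit. Its raw counts were 7, 18 and 8 in siControl and 8, 12 and 12 in siMETTL3. The groups overlapped, and the fold change of 0.872 had a 95% interval from 0.422 to 1.80 (edgeR FDR 0.788). With counts this low, changes inside that interval remained possible.

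**Figure D1:**
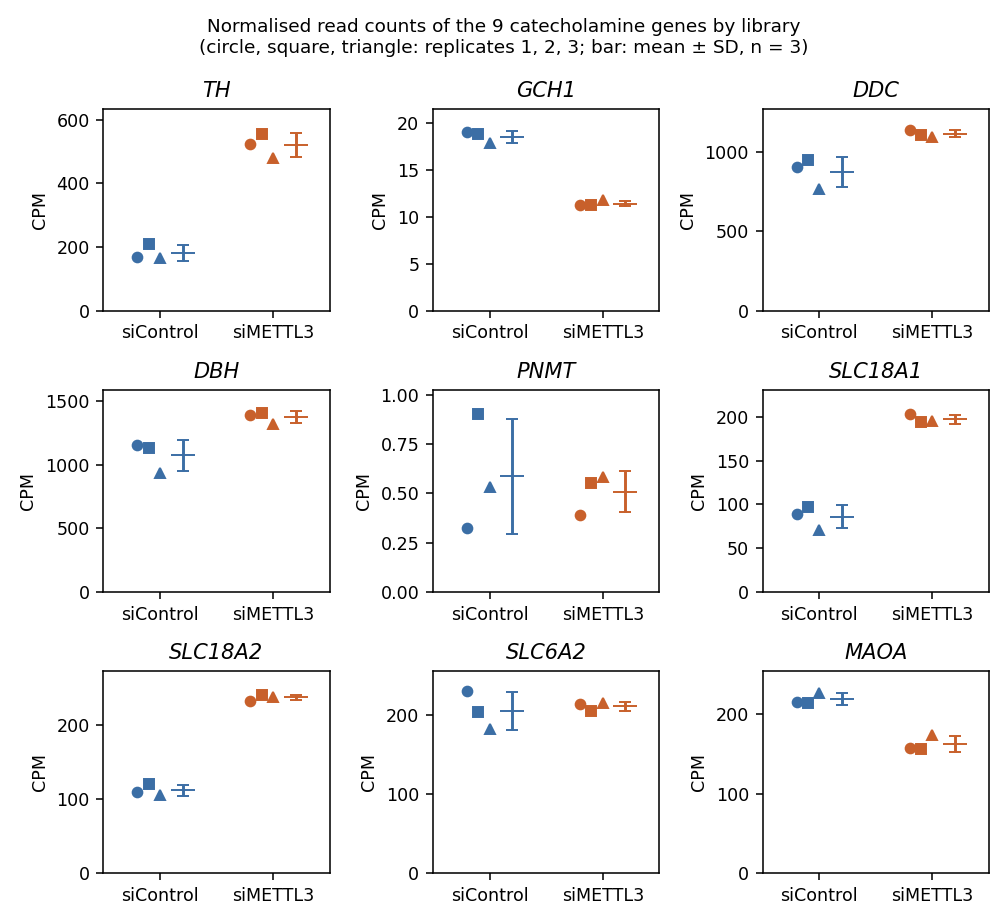
Normalised counts (CPM, vertical axes starting at 0) of the 9 genes in the 3 siControl and 3 siMETTL3 libraries, with the mean ± SD (n = 3) beside the points. TH, SLC18A1 and SLC18A2 lie far above the siControl libraries in siMETTL3, GCH1 and MAOA lie below them, and the values of SLC6A2 and PNMT overlap.

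The vesicular transporters changed alike. SLC18A1 (chromosome 8, 20144855 to 20183206, minus strand), the form typical of endocrine cells, was at 89.4, 96.6 and 71.2 CPM in siControl and at 203, 194 and 195 CPM in siMETTL3. Every siMETTL3 library exceeded every siControl library by at least 2-fold, and the change over means was 2.30-fold (95% interval 2.00 to 2.63, edgeR FDR 1.33e-06). SLC18A2 (chromosome 10, 117241093 to 117279430, plus strand), the form typical of monoamine neurons, was at 110, 120 and 106 CPM in siControl and at 233, 241 and 239 CPM in siMETTL3. Its groups were as clearly apart, with a 2.12-fold change (95% interval 1.94 to 2.32, edgeR FDR 2.55e-08).

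The last 2157 bases of the SLC18A2 span are shared with PDZD8, a gene on the opposite strand that encodes a lipid transfer protein of the endoplasmic reticulum. They hold 56.3% of the exon bases of the canonical SLC18A2 transcript and 22.3% of those of PDZD8. The PDZD8 count rose as well, from 129 ± 8.22 to 179 ± 4.36 CPM (SD, n = 3), or by 0.47 on the log2 scale (FDR 4.91e-05 in edgeR). How many reads the pair shares was not measured. SLC18A2-AS1 and another long non-coding gene of GENCODE release 44 lie on the opposite strand, over 2.36% and 4.05% of the SLC18A2 span. Without strand information their reads cannot be separated from those of SLC18A2. No gene of the tables overlaps SLC18A1.

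SLC6A2 (chromosome 16, 55655604 to 55706192, plus strand), the gene behind MIBG uptake, did not pass the test. It was at 230, 204 and 182 CPM in siControl and at 214, 205 and 215 CPM in siMETTL3. All 3 siMETTL3 values lay inside the siControl range. The fold change was 1.03 with a 95% interval from 0.920 to 1.15 (edgeR FDR 0.722), so a change as large as that of DDC lies outside the interval. A gene without a symbol in GENCODE release 44 covers 4.1% of the SLC6A2 span on the same strand. Its reads there cannot be told from those of SLC6A2.

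MAOA (chromosome X, 43654907 to 43746824, plus strand) fell. Its level was 215, 214 and 227 CPM in siControl and 157, 156 and 174 CPM in siMETTL3. No siMETTL3 library reached the lowest siControl library, and 0.742 of the control level remained (95% interval 0.679 to 0.812, edgeR FDR 0.000101). The related gene MAOB was not tested because of its low counts, with means of 0.400 CPM in siControl and 0.477 CPM in siMETTL3.

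**Figure D2:**
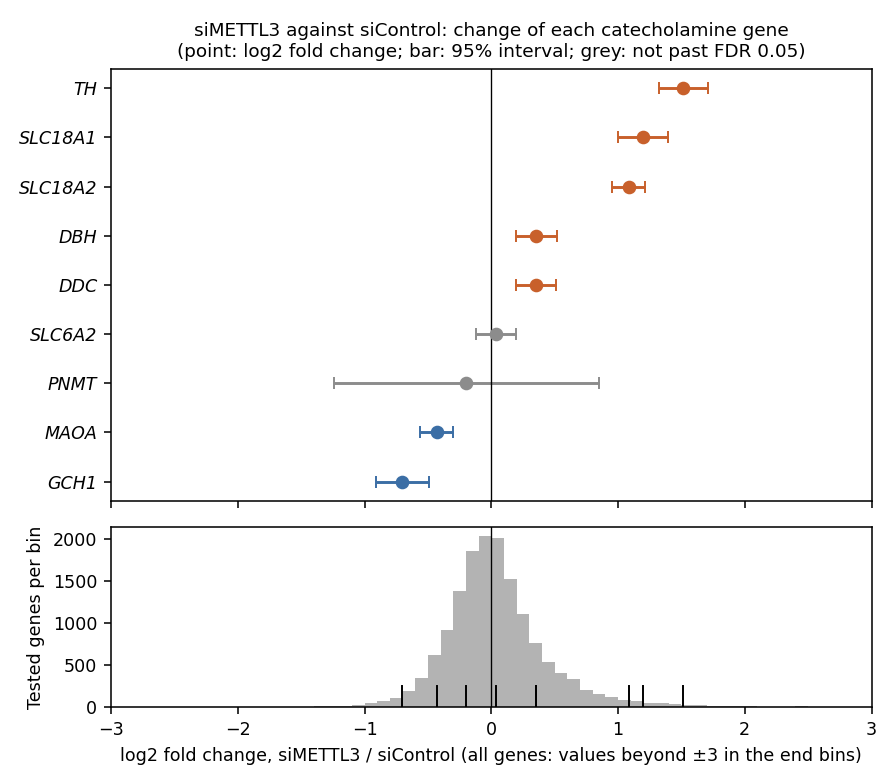
Upper panel, log2 fold change (siMETTL3 over siControl, horizontal axis) of each of the 9 genes with its 95% interval, and lower panel, the number of tested genes in bins of 0.1 with the 9 genes as black ticks. TH at 1.52, SLC18A1 at 1.20 and SLC18A2 at 1.08 lie in the right tail of the 15311 genes, and GCH1 at -0.70 lies in the left tail.

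Ratios of raw counts inside a library do not depend on the scaling between libraries, and 8 were compared. In all 8 the smallest exact two-sided permutation p that 3 against 3 libraries allow is 0.1 (0.114 after adjustment over the 8), so none could pass 0.05. The ratio of TH to GCH1 moved most, from 8.94, 11.2 and 9.23 in siControl to 46.5, 49.4 and 40.8 in siMETTL3, or 4.66-fold (exact permutation p = 0.1). TH to DBH went from 0.170 ± 0.0200 to 0.378 ± 0.0148 (SD, n = 3, exact permutation p = 0.1), a 2.23-fold change without overlap. TH to MAOA changed 3.87-fold and DBH to MAOA 1.73-fold, both without overlap. SLC18A2 to SLC6A2 went from between 0.480 and 0.590 to between 1.09 and 1.18 in raw counts, without overlap. SLC18A1 to SLC18A2 was the exception, at 0.762 ± 0.0788 and 0.831 ± 0.0351 with overlapping groups (SD, n = 3, exact permutation p = 0.3).

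**Figure D3:**
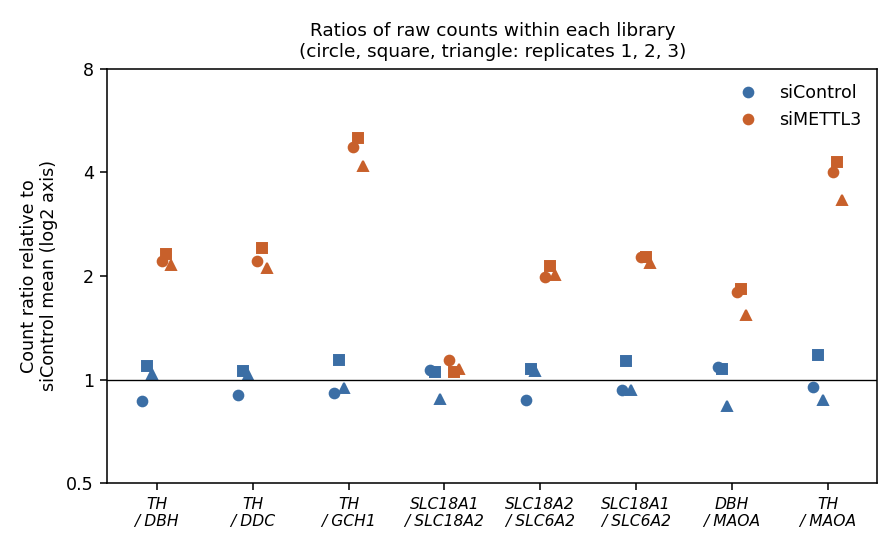
Ratio of the raw counts of 2 genes in each library, divided by the siControl mean of that ratio (vertical log2 axis), for the 8 pairs named below the axis. In 7 pairs all 3 siMETTL3 libraries lie above all 3 siControl libraries, most of all for TH over GCH1, and for SLC18A1 over SLC18A2 the groups overlap.

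Levels can be compared between genes only per length. Per kilobase of canonical exon, the siControl order was DDC at 435 ± 48.1 and DBH at 391 ± 43.8 CPM per kilobase, whose ranges overlapped, then TH at 99.5 ± 13.6 and MAOA at 55.6 ± 1.86 (all SD, n = 3). SLC6A2 at 34.6, SLC18A1 at 32.0 and SLC18A2 at 29.3 followed, with overlapping neighbours, then GCH1 at 6.37 and PNMT at 0.611 CPM per kilobase. In siMETTL3 the levels per kilobase were 555 ± 11.1 for DDC, 500.5 ± 17.4 for DBH and 285 ± 20.4 for TH (SD, n = 3). SLC18A1 at 73.6 and SLC18A2 at 62.1 now stood above MAOA at 41.3 and SLC6A2 at 35.6, and no neighbours in the order overlapped. Among 14591 genes with a transcript length, TH moved from rank 522 to rank 95 in level per kilobase of exon. The counts include introns, and per kilobase of the whole span only 2 of the 9 genes kept their siControl rank. DBH then came first in siControl and TH first in siMETTL3. Together the 9 genes took 0.242% to 0.294% of all counts in siControl and 0.376% to 0.392% in siMETTL3.

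**Figure D4:**
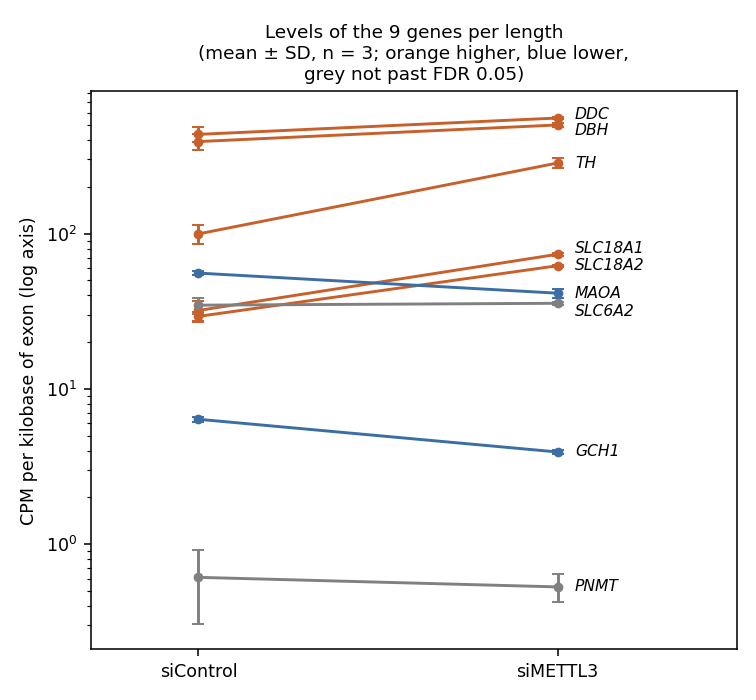
Level per length (CPM per kilobase of canonical exon, log axis) of each of the 9 genes in the 2 groups, as mean ± SD of 3 libraries. The lines of SLC18A1 and SLC18A2 cross those of MAOA and SLC6A2, while DDC, DBH and TH stay on top in that order and GCH1 and PNMT at the bottom.

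In transcript features that were not used to choose them, the 9 genes varied widely. The letters GGACT, a frequent setting of N6-methyladenosine, occurred 3 times in the canonical transcript of TH (1.64 per kilobase), 4 times in that of MAOA (1.02) and not in those of GCH1 and PNMT. The other 5 genes held 2 or 3 matches, at 0.506 to 0.994 per kilobase. Over all tested genes the median was 0.929 per kilobase, with quartiles of 0.564 and 1.39. Methylation itself was not measured in these tables. The share of G and C in the transcripts went from 41.9% in SLC18A2 to 65.8% in TH, around a median of 48.6%.

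The other genes of the pathway were read from lists. Among 7 further genes of tetrahydrobiopterin synthesis and recycling, 1 rose, 1 fell and 5 did not pass. The share called was 28.6%, against 37.8% of all tested genes. The median log2 fold change was 0.0055, against -0.0021 over all tested genes. PCBD2, a pterin dehydratase gene whose span overlaps CATSPER3, was higher by 0.29 on the log2 scale (edgeR FDR 0.0207), but with overlapping groups, and 3 of the 6 fits without 1 library lost the call: those without siControl replicate 2 (FDR 0.12), siMETTL3 replicate 1 (0.105) and siMETTL3 replicate 2 (0.0786). QDPR, which recycles the cofactor, was at 149 ± 3.82 and 146 ± 7.57 CPM (SD, n = 3).

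Breakdown genes other than MAOA gave no call. Of 8 genes, 6 were tested and 0 passed the edgeR threshold, which 37.8% of all tested genes passed. The unadjusted edgeR p was under 0.05 for 2 of the 6. Their median log2 fold change was -0.065, or 0.073 with no filter on low counts. With DESeq2 and with limma-voom 1 of the 6 was called as higher, and 1 was called by edgeR without siControl replicate 1 or siControl replicate 3.

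The list for copper and ascorbate supply to DBH also held MOXD1, a monooxygenase gene related to DBH and not a supply gene. Its genes did not move as one, since 2 of the 6 tested were higher and 1 was lower. The share called was 50%, against 37.8% of all tested genes. The median log2 fold change was -0.097, or 0.45 on genes without overlaps. CYB561, the cytochrome that regenerates ascorbate inside chromaffin vesicles, rose from 218 ± 10.1 CPM to 334 ± 10.2 CPM, a difference of 0.62 on the log2 scale (edgeR FDR 3.03e-06). SLC23A2, an ascorbate transporter, rose by 0.47 on the log2 scale (edgeR FDR 0.000142). ATP7A, the copper pump of the secretory pathway, fell from 58.3 ± 0.956 CPM to 38.7 ± 1.96 CPM, with -0.59 as its log2 fold change (edgeR FDR 1.72e-05). The table's span of PGK1, which was not past the threshold, covers 99.9% of the ATP7A span.

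Of the other monoamine and tyrosine transporters, 5 of 8 were tested, and 2 were higher and 1 lower (median log2 fold change 0.27). The share called was 60% of those tested, against 37.8% of all tested genes. SLC6A3, the dopamine transporter gene, was scarce, with raw counts of 28, 28 and 15 in siControl and 38, 54 and 61 in siMETTL3 (log2 fold change 0.96, edgeR FDR 0.0165). The call was lost without siMETTL3 replicate 2 (FDR 0.0531) or siMETTL3 replicate 3 (FDR 0.0798). SLC7A5 and SLC3A2, the light and heavy chains of a carrier of large neutral amino acids that include tyrosine, moved apart: SLC7A5 was higher by 0.27 (edgeR FDR 0.00939) and SLC3A2 was lower, at -0.28 (edgeR FDR 0.00138), both on the log2 scale. The SLC7A5 call was lost without siMETTL3 replicate 1 (FDR 0.0602) or siMETTL3 replicate 2 (FDR 0.0510).

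The vesicular proton pump, whose gradient drives both VMATs, did not follow them. Of its 17 genes 2 were higher, 3 were lower and 12 did not pass, with a median log2 fold change of -0.0041. The share called was 29.4%, against 37.8% of all tested genes. ATP6V1B2, which lies next to SLC18A1 on chromosome 8, rose from 167 ± 1.49 CPM to 232 ± 16.5 CPM, or by 0.48 on the log2 scale (edgeR FDR 4.40e-05). ATP6V1F fell by 0.51 on the log2 scale (edgeR FDR 0.000196), in a span that lies wholly inside KCP, whose own count was lower as well (-0.35). ATP6V0D1 was higher by 0.31 (edgeR FDR 0.0254) and ATP6V1G2, which overlaps NFKBIL1, was lower by its log2 fold change of -0.64 (edgeR FDR 0.0112). The readthrough gene ATP6V1G2-DDX39B, which covers 54.1% of the ATP6V1G2 span, was lower as well (-0.30, edgeR FDR 0.000551). Leaving out siMETTL3 replicate 2 ended the calls of ATP6V0D1 (FDR 0.0986) and ATP6V1G2 (FDR 0.0659), and ATP6V0D1 was also lost without siControl replicate 2 (FDR 0.10) or siMETTL3 replicate 1 (FDR 0.123). The count of lower pump genes was 5 without siControl replicate 1 and 1 without siMETTL3 replicate 2.

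**Figure D5:**
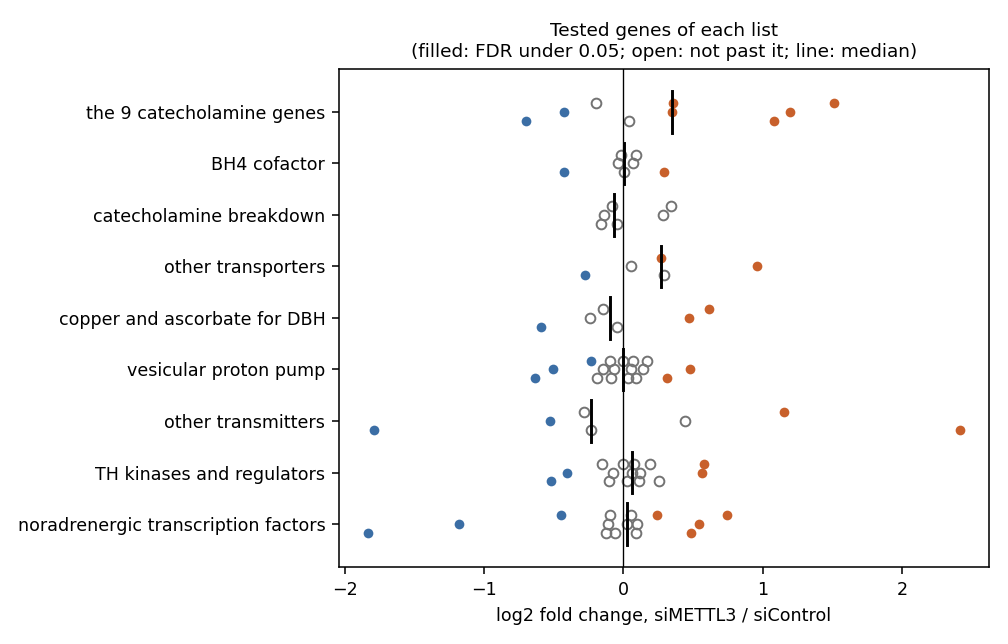
Log2 fold change (siMETTL3 over siControl, horizontal axis) of every tested gene in the list of 9 and in 8 related lists, filled where the FDR was under 0.05, with the list median as a line. The median of the 9 genes lies at 0.35, and the medians of the related lists lie between -0.23 and 0.27, where the sign of several medians depends on the libraries and genes kept.

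Kinases and regulators of TH protein were called for 26.7% of the list, against 37.8% of all tested genes. Among 15 genes, 2 were higher, 2 lower and 11 not called (median log2 fold change 0.065). RPS6KA1 (0.58, edgeR FDR 0.00170) and CAMK2B (0.56, edgeR FDR 0.00888) were higher, and CAMK2D (-0.52, edgeR FDR 0.000133) and PRKACB (-0.40, edgeR FDR 0.00212) were lower, all given as log2 fold changes. Each encodes a protein kinase or its catalytic subunit. Without siControl replicate 1, 4 genes of this list were higher.

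Transcription factors of the noradrenergic phenotype were split, with 4 higher, 3 lower and 8 not called among 15 tested (median log2 fold change 0.023). The share called was 46.7%, against 37.8% of all tested genes. GATA2 rose from 321 ± 19.5 CPM to 539 ± 24.7 CPM, or by 0.75 on the log2 scale (edgeR FDR 1.22e-06), and HAND2 rose by 0.48 (edgeR FDR 1.91e-05). ISL1 (-1.18, edgeR FDR 6.06e-08) and EGR1 (-1.83, edgeR FDR 0.000239) fell on the log2 scale, EGR1 from a low level of 3.79 ± 1.11 CPM. Without siControl replicate 3, 5 genes of this list were lower. PHOX2A, a homeodomain factor that activates DBH in sympathetic cells, was not past the threshold, at 177 ± 10.6 and 165 ± 16.7 CPM (SD, n = 3).

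Enzymes and transporters of other transmitters were scarce, and 7 of 12 were tested, with 2 higher and 2 lower (57.1% called, against 37.8% of all tested genes). Their median log2 fold change of -0.23 had no stable sign: it was 0.39 without siControl replicate 1, 0.43 with no filter on low counts, 0.090 on genes without overlaps and -0.52 where every library had to hold 10 counts. The cholinergic genes SLC5A7, for choline uptake, and SLC18A3, for vesicular acetylcholine, were lower. SLC5A7 had raw counts of 46, 44 and 30 in siControl and 16, 10 and 12 in siMETTL3 (log2 fold change -1.79, edgeR FDR 0.000662). SLC18A3, which lies wholly inside CHAT, had a log2 fold change of -0.53 (edgeR FDR 0.0197), and 4 of the 6 fits without 1 library lost that call: without siControl replicate 1 (FDR 0.0617), siControl replicate 2 (0.0827), siMETTL3 replicate 1 (0.0658) and siMETTL3 replicate 3 (0.0864). CHAT, choline acetyltransferase, was at 20.9 ± 2.94 and 17.3 ± 1.15 CPM and not past the threshold (edgeR FDR 0.0613).

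TPH2, tryptophan hydroxylase of serotonin neurons, and SLC17A7, a vesicular glutamate transporter, were higher from levels under 1 CPM. Raw counts of TPH2 were 14, 8 and 14 against 32, 28 and 30 (log2 fold change 1.15, edgeR FDR 0.0238), and those of SLC17A7 were 1, 6 and 4 against 23, 14 and 30 (log2 fold change 2.41, edgeR FDR 0.00470). The TPH2 call was lost without siControl replicate 2 (FDR 0.107) and without siMETTL3 replicate 1 (0.0876), 2 (0.0541) or 3 (0.0714). Neither gene had 10 counts in every library, and a filter that asks for this left both out.

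Across the 6 libraries, the genes whose pattern lay closest to that of TH were EGFL7, SH3RF3 and SLC66A3. Likeness was the root mean square difference of log2 CPM, centred on each gene's mean, over the 6 libraries and 11763 genes whose average log2 CPM was 3 or more. The differences were 0.079, 0.085 and 0.095 on the log2 scale. EGFL7 was at 11.4, 13.9 and 10.5 CPM in siControl and at 30.4, 32.8 and 29.3 CPM in siMETTL3, so that replicate 2 was the highest library of each group, as for TH. The list was chosen for this likeness and carries no test.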

How the data were processed

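Each library had 1 deposited table of raw read counts. The authors counted reads, per the file headers, with featureCounts 1.5.3 over whole gene spans, introns included, of GENCODE release 33, named there as protein-only. Reads over several genes were counted for each, with no strand option. Per the submitters' processing notes, FastQC 0.11.5, Trimmomatic 0.36, HISAT2 2.1.0 and the build GRCh38 were used. Genes were filtered with filterByExpr, scaled by TMM and compared in R 4.3.3 with edgeR 4.0.16 (robust quasi-likelihood F-test, all 6 libraries, no covariate). FDR were adjusted by Benjamini-Hochberg over 15311 genes, and 0.05 was the threshold. Intervals are 95% intervals of the fitted log2 fold change. Groups and replicate numbers came from the sample titles, and no libraries agreed within sampling noise (chi-square per degree of freedom 3.11 to 16.9 within groups). The fit was tested on simulated data. Exon lengths came from canonical transcripts of GENCODE release 44 (GRCh38), found for 95.3% of tested genes.

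The members and lists were chosen with earlier results of these data known. From each list, every called gene was named, or the 4 with the smallest FDR where more were called, except that some genes are not reported here. The 3 genes most like TH were named by a fixed measure, as were genes overlapping a member or METTL3. QDPR, MAOB, MOXD1, CHAT and PHOX2A were named after their values were seen. Alternatives were scaling by RLE, total counts or upper quartile, other count filters, DESeq2 1.42.0, limma-voom (limma 3.58.1), the replicate number as a block and each library left out. A fit on genes without overlaps and the DDC count less the FIGNL1 count were added after the data were seen. So was the GGACT count.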

Additional observations from a re-analysis of the deposited data

How the results depend on the processing

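The 9 catecholamine genes and METTL3 kept their calls in all 150 values from other settings that could be computed, and PNMT could not be tested where every library had to hold 10 counts. Across the fits without 1 library, the log2 fold change went from 1.45 to 1.63 for TH, 1.08 to 1.29 for SLC18A1, 1.04 to 1.13 for SLC18A2, 0.26 to 0.41 for DDC, 0.26 to 0.41 for DBH, -0.73 to -0.68 for GCH1 and -0.48 to -0.40 for MAOA. SLC6A2 went from -0.041 to 0.13 and PNMT from -0.52 to 0.29, neither past the threshold. On genes without overlaps 1854 genes were higher and 1898 lower, which follows from testing 9520 genes. The 9 genes and METTL3 were kept in that fit even where they overlap others, so it is no check on their shared reads. With gene span in place of exon length, 2 of the 9 genes kept their rank of level. Correlations of deviations were 0.040 to 0.067 for libraries with the same replicate number and -0.064 to 0.026 for different numbers. All were small, and whether the numbers weakly pair the libraries was not tested. With the replicate number as a block the log2 fold change was 1.52 for TH, and 6166 genes were called against 5786. None of the 9 genes, METTL3 or the genes picked from the lists for their calls changed its call in that fit. Of 396 values of 27 other genes picked from the lists or for likeness to TH, 19 lost the call and none changed sign. Of 375 list counts and medians, 51 moved, and the cause was not tested. Low counts limit PNMT, MAOB and the genes given by raw counts.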
